A study of Homo sapiens with 6 samples.

Results

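Chemokines are small secreted proteins that attract leukocytes, and epithelial cells of the gut produce many of them. The transcripts of 10 chemokines that epithelial cells can make were followed in HT29, a human colorectal adenocarcinoma cell line, after knockdown of ALDOA, the glycolytic enzyme aldolase A. The members were taken by gene symbol and all 10 are present among the 28278 genes of the count tables. They comprised the neutrophil-type ligands CXCL1, CXCL2, CXCL3 and CXCL8, the interferon-type ligands CXCL10, CXCL11 and CCL5, the CCR6 ligand CCL20, and the membrane-anchored CXCL16 and CX3CL1. Of the 6 libraries, 3 came from cells given a siRNA against ALDOA (siALDOA) and 3 from cells given a scrambled siRNA (siControl), and RNA was taken 48 h after treatment. Both groups were the same cell line and both received a siRNA, so there was no untreated group and no second siRNA or cell line. The RNA was that of whole cultures, in which more cells with a transcript and more transcript per cell cannot be told apart.

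Chemokines act on G protein-coupled receptors, most of which are carried by leukocytes. CXCL1, CXCL2, CXCL3 and CXCL8 bind CXCR2 and draw neutrophils, and their genes are classical targets of NF-kappaB, the factor that TNF and interleukin-1 activate. CXCL10 and CXCL11 share the receptor CXCR3 of activated T cells and NK cells, and interferons induce both through interferon-stimulated response elements (ISREs). CCL5 attracts T cells and monocytes, and CCL20 recruits CCR6-bearing cells. CXCL16 and CX3CL1 are made as membrane proteins that the proteases ADAM10 and ADAM17 release from the cell surface.

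Most of these genes lie in clusters. On chromosome 4 of hg38 (GENCODE release 44), CXCL8 (73740519 to 73743716), CXCL1 (73869393 to 73871308), CXCL3 (74036589 to 74038807) and CXCL2 (74097040 to 74099196) share one cluster. CXCL10 (76021118 to 76023497) and CXCL11 (76033682 to 76041415) share another, on the minus strand and 10184 bases apart. CCL20 lies on chromosome 2 (227805739 to 227817564), CCL5 (35871491 to 35880793) and CXCL16 (4733533 to 4739928) lie on chromosome 17, and CX3CL1 on chromosome 16 (57372477 to 57385044).

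The upstream sequences of 5 members are given to show what the interferon-type pair and the NF-kappaB-type genes share. They are the 250 bases before the RefSeq start site (GRCh38.p14), 5′ to 3′ on the gene's own strand, with start and end in genome coordinates. Capitals mark an ISRE core (GAAA, any 2 bases, GAAA), a match to the kappaB consensus, or the word GGAATTTCC (GGAAATTCC on the other strand), which often lies inside a kappaB match.
CXCL10, chr4:76023498-76023747, minus strand: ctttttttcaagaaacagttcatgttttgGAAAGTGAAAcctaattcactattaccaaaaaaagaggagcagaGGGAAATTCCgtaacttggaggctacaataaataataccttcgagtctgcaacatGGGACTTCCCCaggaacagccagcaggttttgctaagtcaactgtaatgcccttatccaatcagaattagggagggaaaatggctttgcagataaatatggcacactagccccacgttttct
CXCL11, chr4:76036071-76036320, minus strand: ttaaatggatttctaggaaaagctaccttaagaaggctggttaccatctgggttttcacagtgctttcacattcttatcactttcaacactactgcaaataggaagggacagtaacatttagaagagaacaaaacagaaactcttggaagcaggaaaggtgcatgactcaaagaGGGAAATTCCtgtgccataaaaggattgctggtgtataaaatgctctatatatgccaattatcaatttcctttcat
CXCL1, chr4:73869143-73869392, plus strand: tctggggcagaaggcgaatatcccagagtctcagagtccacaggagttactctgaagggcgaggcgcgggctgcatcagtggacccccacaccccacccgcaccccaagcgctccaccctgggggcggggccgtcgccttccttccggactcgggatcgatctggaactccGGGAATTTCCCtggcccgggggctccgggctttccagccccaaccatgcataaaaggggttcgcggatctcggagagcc
CXCL8, chr4:73740319-73740568, plus strand: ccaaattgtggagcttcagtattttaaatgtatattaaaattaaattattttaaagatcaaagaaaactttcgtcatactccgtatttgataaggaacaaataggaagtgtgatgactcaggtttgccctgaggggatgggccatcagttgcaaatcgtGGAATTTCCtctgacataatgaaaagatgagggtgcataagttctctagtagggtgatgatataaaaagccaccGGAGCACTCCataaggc
CCL20, chr2:227813592-227813841, plus strand: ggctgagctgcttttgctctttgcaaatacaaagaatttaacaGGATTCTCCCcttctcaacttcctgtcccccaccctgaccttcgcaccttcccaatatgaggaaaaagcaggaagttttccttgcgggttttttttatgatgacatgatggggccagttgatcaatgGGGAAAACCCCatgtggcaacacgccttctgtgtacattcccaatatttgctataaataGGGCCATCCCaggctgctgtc

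Of the 10 members, 7 had a start site in the RefSeq promoter table, and CXCL16, CCL5 and CX3CL1 had none there. The ISRE core occurred in 1 of these 7 windows, that of CXCL10, 221 to 212 bases before the start, against 3.07% of 27305 promoters of the same length searched on both strands. No match was present in the CXCL11 window. The GENCODE spans of CXCL11 and CCL20 begin further upstream than the RefSeq starts used here, so their windows lie within those spans. The windows of CXCL3 and CXCL8 lie partly within their own spans, and that of CXCL2 touches its span at the edge. Other start sites were not searched. The kappaB consensus (GGRNNNYYCC, where R is A or G, Y is C or T and N any base) matched in 7 of 7 windows against 28.2% of all promoters. In CXCL8 the only match lay 17 to 8 bases before the start. CXCL1, CXCL2 and CXCL3 are close relatives, so the 7 windows are not independent. The word GGAATTTCC, which was chosen after the sequences had been seen, occurred in 6 of 7 windows against 0.428% of all promoters. It lay 78 to 70 bases before the start in CXCL1 and CXCL3, 77 to 69 in CXCL2, 91 to 83 in CXCL8, 75 to 67 in CXCL11 and 176 to 168 in CXCL10, and CCL20 lacked it. AP-1 sites (TGANTCA, both strands) were found in CXCL8 and CXCL11, against 6.6% of promoters, and a TATAAA word on the gene strand in CXCL8, CXCL11 and CCL20, against 7.17%. These are matches of letters, and binding was not measured.

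The libraries held 27277538 to 33237914 counts. ALDOA itself fell from 632 ± 38.2 CPM (counts scaled to library size with TMM factors, SD, n = 3) in siControl to 289 ± 13.7 CPM in siALDOA (n = 3), a log2 fold change of -1.13 (SE 0.060, edgeR quasi-likelihood adjusted p = 6.95e-11), so 0.457 of the control level was left. Ribosomal RNA genes took 13.1%, 7.71% and 8.11% of the counts in siALDOA replicates 1, 2 and 3 and 17.4%, 15.3% and 8.15% in siControl. In a chi-square over all genes, siALDOA replicate 1 differed from the other siALDOA libraries by 34.5 to 39.4 per degree of freedom, and these differed from each other by 5.09. By the same measure siControl replicate 3 differed from the other siControl libraries by 58.2 to 90.7, which differed from each other by 11.4. Without ribosomal RNA genes the siControl values were 4.85 to 7.64 and siALDOA replicate 1 still stood apart (10.05 and 10.6 against 4.77). Member values that move by over 1.5 times when 1 of these libraries is left out are given without it. The epithelial identity of the cells was plain from their markers: all 8 epithelial markers were tested, and their summed level was 9467 to 9797 CPM in siALDOA and 10030 to 10590 CPM in siControl.

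Knockdown of ALDOA was accompanied by a higher level of CXCL10 and, less securely, CCL5, whereas no member was called lower. Of the 9 members that passed the filter on low counts, 2 were called higher and 0 lower at an adjusted p below 0.05 over all 15307 tested genes, where 4.36% of genes were called higher, 5.29% lower and 9.66% in either direction. Every siALDOA library lay above every siControl library in 2 of the 9 and below in 1, against 13.1% and 14.6% of all tested genes (27.7% in either direction). At the unadjusted p below 0.01 that the study's methods use, 2 members were higher and 0 lower, against 5.72% and 6.74% of all genes. By the same comparison, 6 of the 9 members had a positive and 3 a negative log2 fold change, with a median of 0.32 against 0.0016 over all tested genes. The members' median was 0.57 without siALDOA replicate 1 and 0.51 with siALDOA replicate 1 and siControl replicate 3 both left out. The tested members other than CXCL16 were of low abundance, between 0.647 and 2.82 CPM on average. Of the 2024 tested genes in that range, 1.48% were called in either direction, and their median SE on the log2 scale was 0.332, against 0.0953 over all tested genes. Most member estimates therefore came with wide intervals.

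**Figure D1:**
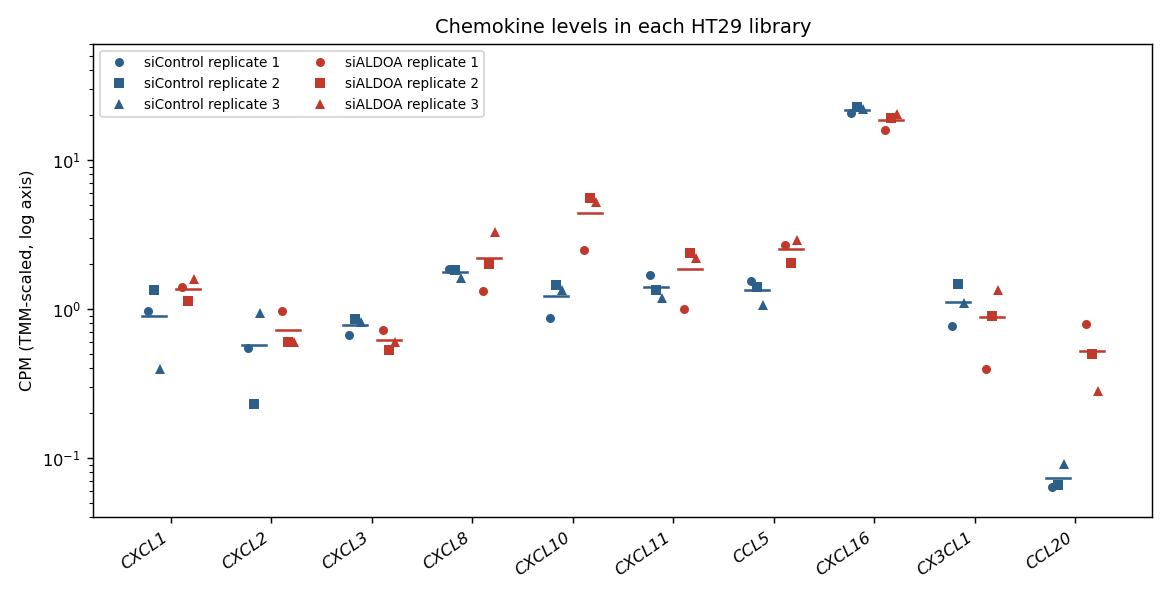
Level of each of the 10 chemokines in the 6 HT29 libraries, in TMM-scaled CPM on a log axis, with 1 point per library and a bar at the group mean. CXCL10, CCL5 and CCL20 have every siALDOA library above every siControl library, CXCL16 has every siALDOA library below, and the other 6 overlap.

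CXCL10 (ENSG00000169245) changed most among the tested members. Its counts were 69, 166 and 149 in siALDOA replicates 1, 2 and 3 and 27, 44 and 44 in siControl, which is 2.48, 5.52 and 5.24 CPM against 0.866, 1.44 and 1.34 CPM. Every siALDOA library exceeded every siControl library, with replicate 1 the lowest of its group in both. The mean rose from 1.21 ± 0.306 to 4.42 ± 1.68 CPM (SD, n = 3 each), a fitted difference of 3.63-fold (log2 fold change 1.86, SE 0.30, 95% interval 1.24 to 2.48, edgeR adjusted p = 2.71e-04). It was called in 14 of 14 alternative analyses, at 1.67 to 2.14 on the log2 scale. With siALDOA replicate 1 and siControl replicate 3 both left out, the value was 2.22 (adjusted p = 3.48e-05).

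CXCL11, which lies next to CXCL10 and signals through the same receptor, did not pass the test. Its counts were 28, 71 and 62 in siALDOA and 53, 41 and 39 in siControl, or 1.01, 2.36 and 2.18 CPM against 1.70, 1.34 and 1.18 CPM. The groups overlapped because siALDOA replicate 1 was the lowest of all 6 libraries. The log2 fold change was 0.40 (SE 0.33, 95% interval -0.29 to 1.09, edgeR adjusted p = 0.514), so neither no change nor a 1-unit log2 rise lay outside the interval. With 1 library left out the value ran from 0.18 without siALDOA replicate 2 to 0.69 without siALDOA replicate 1 (adjusted p = 0.839 and 0.188), and it was 0.58 with siALDOA replicate 1 and siControl replicate 3 both left out. The number of CXCL10 counts per CXCL11 count, a measure chosen after the values had been seen, was 2.46, 2.34 and 2.40 in siALDOA and 0.509, 1.07 and 1.13 in siControl. These ratios did not overlap and differed by 1.496 on the log2 scale (two-sided exact permutation test, p = 0.1, the smallest that 20 regroupings of 3 against 3 allow). With 1 library left out the difference ran from 1.126 (without siControl replicate 1) to 1.699 (without siControl replicate 3). The ratio compares both genes within a library, and siALDOA replicate 1 stood with its group in it. Transcripts of the pair share 61.8% of aligned bases with no common stretch over 11 bases.

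CCL5 (ENSG00000271503), known as RANTES, was the other member called higher. Its counts were 75, 61 and 82 in siALDOA and 48, 43 and 35 in siControl, or 2.69, 2.03 and 2.89 CPM against 1.54, 1.41 and 1.06 CPM. The groups did not overlap, and siALDOA replicate 1 was not low for this gene. The mean was 2.54 ± 0.449 CPM against 1.34 ± 0.247 CPM (SD, n = 3 each), with a 1.90-fold difference (log2 fold change 0.92, SE 0.28, 95% interval 0.34 to 1.51, edgeR adjusted p = 0.0411). The call held in 10 of 14 alternative analyses. It was lost without siALDOA replicate 1 (log2 fold change 0.88, adjusted p = 0.0919), siALDOA replicate 3 (0.82, adjusted p = 0.141), siControl replicate 2 (0.96, adjusted p = 0.0981) or siControl replicate 3 (0.78, adjusted p = 0.174), each with an SE of 0.31 to 0.32, and without both siALDOA replicate 1 and siControl replicate 3 (log2 fold change 0.74, adjusted p = 0.24). Summed over the 3 interferon-type members, the level was 6.18, 9.92 and 10.3 CPM in siALDOA and 4.11, 4.19 and 3.58 CPM in siControl.

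CCL20, which recruits CCR6-bearing T cells and dendritic cells, was scarcely detected in the controls. It had 22, 15 and 8 counts in siALDOA and 2, 2 and 3 in siControl, and so did not pass the filter on low counts. Every siALDOA library was above every siControl library, each of which was at or under 3 counts. Pooled within groups, 45 counts stood against 7, which after scaling for depth is a ratio of 7.05. Its exact 95% interval was 3.16 to 18.5, for counting error only. That interval may be too narrow if mates of a pair were counted singly, which was not tested. In this gene siALDOA replicate 1 was the highest and replicate 3 the lowest of the knockdown libraries, whereas replicate 1 was the lowest for CXCL10. With no filter on low counts, the fitted log2 fold change was 2.75 (edgeR adjusted p = 0.0232). With 1 library left out it passed the filter in 4 fits, each time through the siALDOA libraries where it is high, and those fits are not counted as support.

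The 4 neutrophil-type members did not pass the test in either direction. Together they stood at 4.42, 4.26 and 6.05 CPM in siALDOA and at 4.04, 4.26 and 3.76 CPM in siControl. The highest value, in siALDOA replicate 3, came with the highest CXCL8 level.

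CXCL8, or interleukin-8, a major neutrophil attractant, had 37, 60 and 93 counts in siALDOA and 58, 56 and 53 in siControl, or 1.33, 2.00 and 3.27 CPM against 1.86, 1.84 and 1.61 CPM. The siALDOA libraries spread on both sides of the controls, which were close together. The means were 2.20 ± 0.988 and 1.77 ± 0.139 CPM (SD, n = 3 each) and the log2 fold change was 0.32 (SE 0.31, 95% interval -0.32 to 0.96, edgeR adjusted p = 0.591). Without siALDOA replicate 3 the estimate was -0.085, and without siALDOA replicate 1 it was 0.57.

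CXCL1, once called growth-related oncogene alpha, had 39, 34 and 45 counts in siALDOA and 30, 41 and 13 in siControl. The knockdown libraries lay at 1.401, 1.13 and 1.58 CPM and the controls at 0.962, 1.34 and 0.395 CPM, so that the control replicate 3 was the low one and the groups overlapped. The log2 fold change was 0.61 (SE 0.40, 95% interval -0.22 to 1.45, edgeR adjusted p = 0.387), and it ran from 0.25 without siControl replicate 3 to 1.02 without siControl replicate 2 (adjusted p = 0.791 and 0.24).

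CXCL2 and CXCL3, close relatives of CXCL1, gave no common direction. CXCL2 had 27, 18 and 17 counts in siALDOA and 17, 7 and 31 in siControl, with a log2 fold change of 0.32 (SE 0.48, 95% interval -0.68 to 1.33, edgeR adjusted p = 0.745). Its controls varied more than the knockdown libraries, and the estimate was -0.048 without siControl replicate 2, 0.056 without siALDOA replicate 1 and 0.89 without siControl replicate 3. CXCL3 had 20, 16 and 17 counts in siALDOA and 21, 26 and 27 in siControl, with a log2 fold change of -0.34 (SE 0.40, 95% interval -1.18 to 0.50, edgeR adjusted p = 0.667). The counts of these 3 genes may be uncertain if reads were shared between them, and read assignment was not tested. CXCL1 and CXCL2 transcripts share 91.1% of aligned bases and a stretch of 77 bases, CXCL2 and CXCL3 share 82.9% and a stretch of 97, and CXCL1 and CXCL3 share 81.8% and a stretch of 55. Summed into 1 feature, the 3 genes had 86, 68 and 79 counts in siALDOA and 68, 74 and 71 in siControl, at 2.71 ± 0.418 against 2.25 ± 0.149 CPM (SD, n = 3 each). The sum differed by 0.27 on the log2 scale (SE 0.23, edgeR adjusted p = 0.546), with a sign opposite to that of CXCL3 alone.

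CXCL16, the ligand of CXCR6, was by far the most abundant member and the 1 member whose siALDOA libraries were all below the controls. It had 439, 577 and 578 counts in siALDOA and 644, 693 and 721 in siControl, or 15.8, 19.2 and 20.3 CPM against 20.65, 22.7 and 21.9 CPM. The highest siALDOA library lay just under the lowest control, so the groups were barely separated. The mean was 18.4 ± 2.38 CPM against 21.8 ± 1.03 CPM (SD, n = 3 each), with a log2 fold change of -0.24 (SE 0.10, 95% interval -0.45 to -0.03, unadjusted p = 0.0294, edgeR adjusted p = 0.155), so the member was not called. The estimate was -0.14 without siALDOA replicate 1, the lowest library, and -0.16 when scaled by library totals alone. Of the exon bases of CXCL16, 3.44% lie opposite ZMYND15 and 2.72% opposite MED11. CXCL16 made up 57.2%, 55.2% and 53.1% of all member counts in siALDOA and 69.7%, 69.4% and 72.0% in siControl, while CXCL10 made up 8.996%, 15.9% and 13.7% against 2.92%, 4.41% and 4.39%.

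CX3CL1, or fractalkine, the other membrane-anchored member, had 11, 27 and 38 counts in siALDOA and 24, 45 and 36 in siControl. Replicate 1 was the lowest library in both groups, and the groups overlapped. The means were 0.877 ± 0.472 and 1.11 ± 0.353 CPM (SD, n = 3 each), with a log2 fold change of -0.34 (SE 0.43, 95% interval -1.23 to 0.56, edgeR adjusted p = 0.697). It ran from -0.77 without siALDOA replicate 3 to 0.0057 without siALDOA replicate 1. SiALDOA replicate 1, the knockdown library with the most ribosomal RNA, was the lowest siALDOA library for CXCL8, CXCL10, CXCL11, CXCL16 and CX3CL1 and the highest for CXCL2, CXCL3 and CCL20. With ribosomal RNA genes left out before scaling, 2 members were again called higher and 0 lower, the former again CXCL10 and CCL5.

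**Figure D2:**
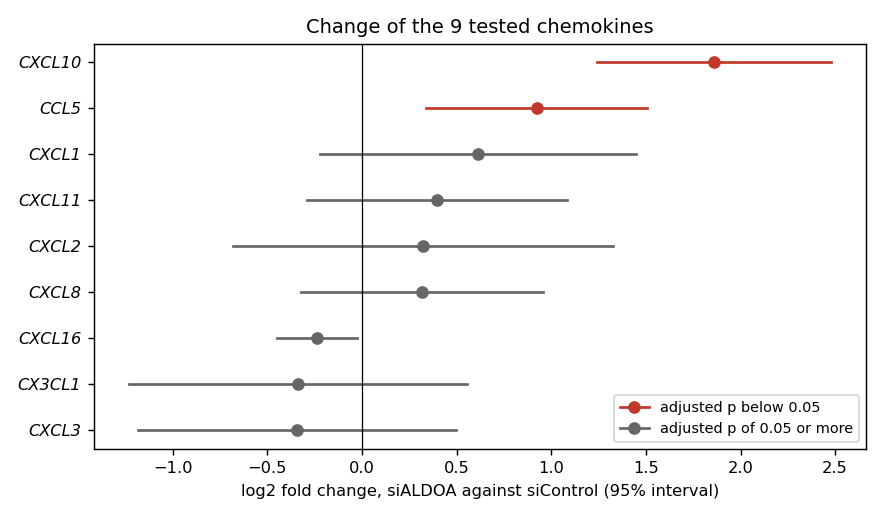
Log2 fold change of the 9 tested chemokines, siALDOA against siControl, from the edgeR fit over all genes, with 95% intervals as lines. The intervals of CXCL10 (1.24 to 2.48) and CCL5 (0.34 to 1.51) lie above 0 and have adjusted p below 0.05, that of CXCL16 (-0.45 to -0.03) lies below 0 without passing, and the other 6 include 0.

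**Figure D3:**
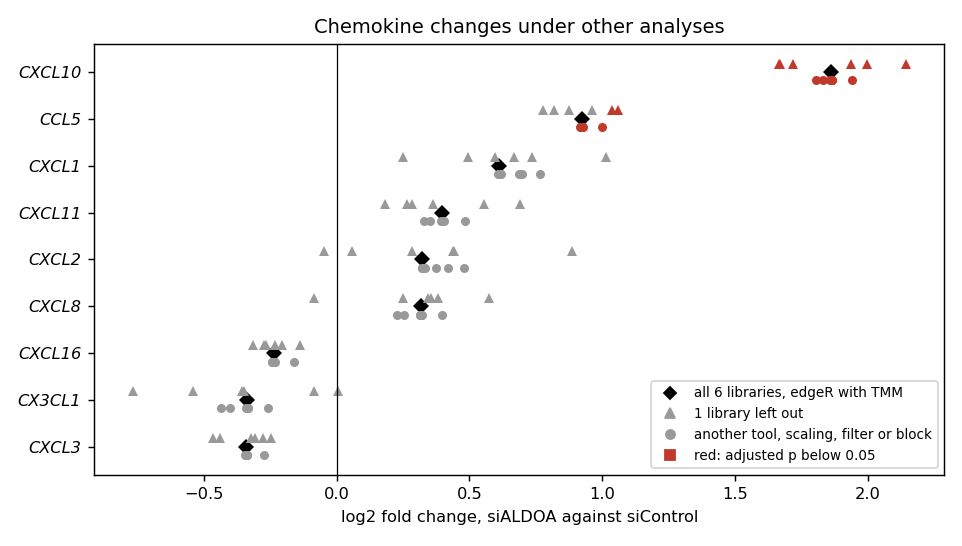
Log2 fold changes of the same 9 chemokines under the 14 alternative analyses, with diamonds for all 6 libraries, triangles for 1 library left out and circles for another tool, scaling, filter or replicate block, and red for an adjusted p below 0.05. CXCL10 stays red throughout, CCL5 turns grey in 4 of its 6 triangles, and CXCL2, CXCL8 and CX3CL1 each reach the other side of 0 once.

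Divided by transcript length, the levels can be compared between genes. In siControl CXCL16 came first at 9.36 CPM per kilobase, followed by CXCL8 (1.08), CXCL10 (1.03), CCL5 (1.03), CXCL11 (0.953), CXCL1 (0.767), CXCL3 (0.727), CXCL2 (0.513) and CX3CL1 (0.339), with CCL20 last (0.0882). From CXCL8 to CX3CL1 each neighbour in that order overlapped the next over the 3 libraries, and only CXCL16 and CCL20 stood clear. In siALDOA CXCL16 again came first at 7.93 CPM per kilobase, with CXCL10 (3.76) next, then CCL5 (1.95), CXCL8 (1.34), CXCL11 (1.25), CXCL1 (1.17), CXCL2 (0.648), CCL20 (0.628), CXCL3 (0.573) and CX3CL1 (0.267). There the ranges were separate between CXCL16 and CXCL10, between CXCL1 and CXCL2 and between CXCL3 and CX3CL1, and the other neighbours overlapped. CXCL10 thus ranked behind CXCL8 in the controls, among overlapping neighbours, and directly behind CXCL16 after knockdown.

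The rest of the chemokine family was mostly silent in HT29. Of 38 other ligands, 22 had no count in any library, 4 were tested, and 0 were called in either direction at an adjusted p below 0.05 (edgeR; 0 also had an unadjusted p under 0.05, and 0 were called by DESeq2 or limma-voom). CCL28, a mucosal ligand of CCR10, stood at 7.56 ± 0.730 CPM in siALDOA and 8.18 ± 0.447 CPM in siControl (SD, n = 3 each). CCL15 stood at 12.9 ± 0.475 and 12.9 ± 0.211 CPM, with 41.8% of its exon bases shared with the read-through gene CCL15-CCL14. CCL14 had a log2 fold change of -0.60 (edgeR adjusted p = 0.387) and CXCL17 of -0.42 (adjusted p = 0.713). CXCL9, the third CXCR3 ligand, lies 13608 bases from CXCL10 and had 6, 3 and 6 counts in siALDOA and 2, 5 and 8 in siControl, so no difference was detectable at this depth. CXCL6, a neutrophil ligand of the CXCL8 and CXCL1 cluster, had 12, 7 and 8 counts against 12, 2 and 2. Both were named after their counts were seen.

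The receptors of the members were scarce or undetected. Of 23 chemokine receptors 5 were tested and 0 were called higher or lower (edgeR; 1 had an unadjusted p under 0.05, and 0 were called by DESeq2 or limma-voom). That 1 was ACKR4, a scavenging receptor, at 14.9 ± 1.70 CPM in siALDOA and 17.6 ± 1.52 CPM in siControl (log2 fold change -0.23, adjusted p = 0.193). CXCR3, the receptor of CXCL10 and CXCL11, stood at 0.480 ± 0.241 and 0.287 ± 0.169 CPM (adjusted p = 0.462). CXCR4, the receptor of CXCL12, stood at 13.6 ± 2.20 and 13.7 ± 1.30 CPM, and CCRL2, an atypical receptor, at 12.2 ± 0.924 and 12.2 ± 1.32 CPM. The 65.3 ± 4.33 and 69.2 ± 3.25 CPM listed for CXCR5 are uncertain, because 91.1% of its exon bases lie opposite BCL9L. CXCR2 had 1 count in all 6 libraries together.

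No gene on the list of proteases that release or trim chemokines passed the test in either direction. The list also holds the ADAM17 partners RHBDF1 and RHBDF2 and the inhibitor TIMP3, which are not proteases. Of the 13 genes, 7 were tested, RHBDF1 and RHBDF2 among them, and 0 were called by edgeR, DESeq2 or limma-voom. In edgeR 0 had an unadjusted p under 0.05. Without siALDOA replicate 3, 1 was called lower. The filter on low counts was applied anew in that fit, and its call is not counted as support. MMP2, a matrix metalloproteinase too scarce to be tested and named after its counts were seen, had 0, 1 and 4 counts in siALDOA and 11, 7 and 13 in siControl, without overlap. DPP4, which clips the amino terminus of CXCL10 and other ligands, had a log2 fold change of -0.14 (adjusted p = 0.243), and RHBDF1, a partner of ADAM17, one of 0.12 (adjusted p = 0.29). ADAM10 stood at 205 ± 10.4 and 202 ± 8.08 CPM and ADAM17 at 54.6 ± 1.91 and 50.8 ± 0.655 CPM (SD, n = 3 each). ADAM17 was the 1 of the 7 tested genes whose siALDOA libraries all lay above the controls (log2 fold change 0.10, edgeR adjusted p = 0.354). Of all tested genes 13.1% did so.

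Genes of the interferon route to CXCL10 and CXCL11 were higher in most cases. Of 13 tested, 8 were called higher and 1 lower (4.36% and 5.29% over all tested genes), with a median log2 fold change of 0.27 against 0.0016 over all tested genes. The sensors DDX58 (RIG-I) and IFIH1 (MDA5), which detect double-stranded RNA, rose by 1.21 and 1.25 on the log2 scale (edgeR adjusted p = 6.02e-11 and 1.28e-10). STAT2 and IRF7, transcription factors of the type I interferon response, rose by 0.78 and 0.76 (adjusted p = 1.63e-07 and 4.50e-07). MAVS, the adaptor that relays both sensors, was the 1 that fell, by 0.22 (adjusted p = 0.0185), and is named for that reason. Leaving out single libraries left 6 to 7 called higher and 0 to 1 called lower. The call of MAVS was also lost on scaling by library totals. Knockdown of ALDOA and treatment with this siRNA cannot be told apart here.

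Genes of the NF-kappaB route moved in both directions. Of its inducers and their receptors, 18 of 30 were tested, with 3 called higher, 0 lower (4.36% and 5.29% over all tested genes) and a median of -0.02. Other analyses called 3 to 5 higher, and 1 was called lower without siALDOA replicate 3, with no filter on low counts or with the replicate block, which gave 5 higher. The 3 called higher were TNFSF10, the death ligand TRAIL (log2 fold change 1.13, adjusted p = 9.13e-07), MYD88, the adaptor of Toll-like and interleukin-1 receptors (0.47, adjusted p = 5.37e-04), and IL17RC, a subunit of the interleukin-17 receptor (0.47, adjusted p = 0.00152). Of 14 feedback genes, which NF-kappaB itself induces, 14 were tested, with 3 called higher, 1 lower and a median of 0.03. NFKBIE, an inhibitor of NF-kappaB, rose by 0.51 on the log2 scale (adjusted p = 0.00902), and NFKB2 and RELB, subunits of the noncanonical pathway, by 0.29 and 0.33 (adjusted p = 0.044 and 0.0489). TNIP1, which dampens TNF signalling, fell by 0.44 (adjusted p = 1.80e-04). With 1 library left out, 0 to 2 feedback genes were called higher and 1 lower. Without siALDOA replicate 2 or siControl replicate 3, 0 were called higher.

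Many chemokine messages carry AU-rich elements that limit their half-life. Of 12 factors that act on these elements or, like RC3H1, RC3H2 and ZC3H12A, on stem-loops in cytokine messages, 12 were tested, 0 were called higher and 1 lower, a share near the 9.66% called in either direction over all tested genes. Of these factors 2 were called lower without siALDOA replicate 3, 1 was called higher without siControl replicate 1 or on library totals, and 2 were called higher with the replicate block. The 1 called with all libraries was KHSRP, which promotes decay, at 136 ± 16.2 CPM in siALDOA and 179 ± 9.31 CPM in siControl (log2 fold change -0.40, adjusted p = 0.0012). Of 14 other neutrophil and myeloid factors, 6 were tested, 0 were called higher and 1 lower, the cytokine IL32 (log2 fold change -0.71, adjusted p = 0.0234, at 2.62 ± 0.164 against 4.28 ± 0.212 CPM). With 1 library left out, 1 gene of this list was called lower without siALDOA replicate 1 and 0 without any of the other 5, and 0 on scaling by library totals, whereas 2 were called lower with no filter on low counts or with the replicate block.

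**Figure D4:**
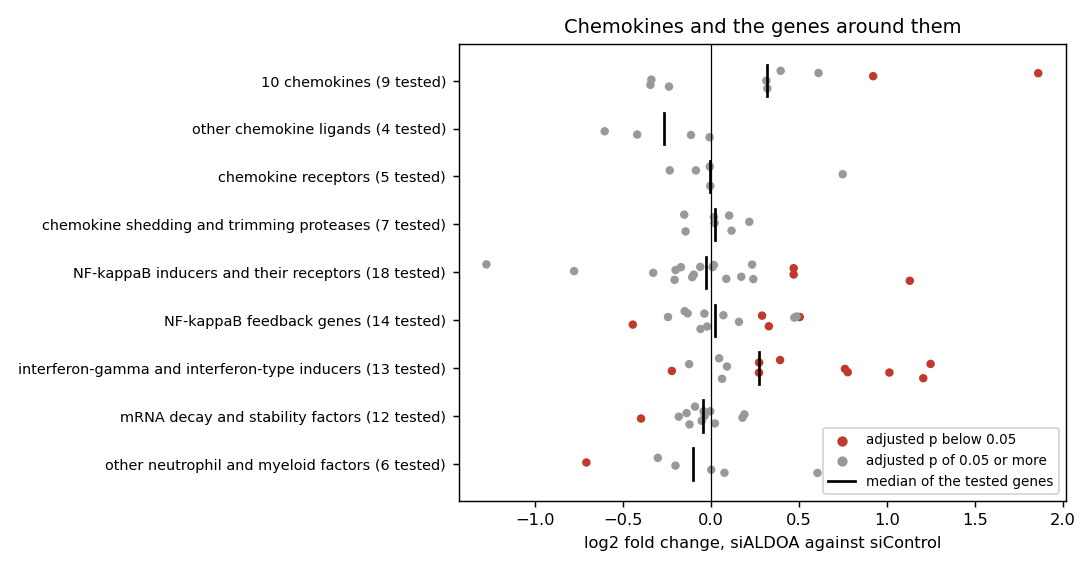
Log2 fold changes, siALDOA against siControl, of the tested genes of the 10 chemokines and of 8 surrounding gene lists, with 1 point per gene, red for an adjusted p below 0.05 and a bar at the median of each list. The interferon-type inducers hold 8 red points above 0 and 1 below. The receptors, the other ligands and the list of proteases and their regulators hold none.

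The genes whose profile over the 6 libraries lay nearest to a member were found by the root mean square difference of centred log2 CPM. CXCL10 was nearest to EPSTI1 (0.200), MX2 (0.239), an antiviral GTPase, and SLC15A3 (0.267), which had log2 fold changes of 1.57, 1.68 and 1.78. The nearest to CXCL16 were IRAK1 (0.0392), the kinase of interleukin-1 receptors, CCDC97 (0.0394) and PRKAR1B (0.0397), with log2 fold changes of -0.20, -0.19 and -0.20. DNAJC28 (0.127), H2BC9 (0.138) and POU5F1B (0.152) lay nearest to CXCL1, and none of these 3 was called.

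Markers of other cell types that could carry chemokines were low, and CD14 was the exception among leukocyte markers. Of 14 leukocyte markers, 1 was tested, CD14, which was called higher (16.9 ± 0.712 against 13.5 ± 1.04 CPM, log2 fold change 0.32, edgeR adjusted p = 0.0485). PTPRC, the pan-leukocyte marker CD45, had at most 1 count in a library, and TYROBP, CD3E, CD3D, CD2 and MS4A1 were at 0 in all 6. The summed leukocyte markers ran from 16.7 to 18.1 CPM in siALDOA and from 12.7 to 14.9 CPM in siControl, nearly all of it CD14. Of 8 fibroblast markers 2 were tested and of 6 endothelial markers 1, with 0 called (COL1A1 adjusted p = 0.572, LUM 0.683, TEK 0.602). Their summed levels were 3.16 to 4.47 and 3.21 to 4.46 CPM for fibroblasts and 0.669 to 0.754 and 0.212 to 0.655 CPM for endothelium. Of the 8 epithelial markers KRT19 was called higher (log2 fold change 0.38, adjusted p = 5.77e-04) and KRT18 lower (-0.28, adjusted p = 0.0152).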

How the data were processed

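HT29 RNA was sequenced as paired-end Illumina libraries, 3 per group. Per the labels and the study's methods, the authors used TopHat2 for alignment (hg38) and GFOLD for counting per gene. The deposited values are raw counts per gene symbol. Annotation, strand setting and treatment of multi-mapping reads were not given in the sources used here. Counts of 1 and 2 (4006 and 4015 values) and of 3 and 4 (2180 and 2196) were about equally frequent, and whether mates of a pair were counted singly was not tested, so counting intervals may be too narrow. Depth was 27277538 to 33237914 counts per library.

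Counts were tested with edgeR 4.0.16 in R 4.3.3 (TMM, filterByExpr, quasi-likelihood F-test, two-sided, Benjamini-Hochberg over 15307 genes). A call is an adjusted p below 0.05. The SE of a log2 fold change was taken from the F statistic. The study states a threshold of unadjusted p below 0.01, counted beside it. Groups came from the labels. The members and gene lists were chosen with earlier results of these data known. RIGI was listed as DDX58. The genes named are ALDOA, the 10 members, tested ligands and receptors, of each other list at most 5 called genes by smallest p (the 2 with the smallest p where none was called), and 3 nearest profiles to each of 3 members. One gene that this rule names is not reported here. Genes outside this rule are named with the reason, and other members of a list, such as ADAM10, ADAM17 and the markers at 0, were named after their values were seen. Alternatives were limma-voom 3.58.1, DESeq2 1.42.0, library totals, upper quartile, 2 other filters, a replicate block, ribosomal RNA genes left out, and each library left out. The fit was tested on simulated data. Replicate numbers were checked for pairing. CCL20 intervals are exact conditional ones on pooled counts. Lengths, positions and overlaps are from GENCODE release 44, promoters from RefSeq (GRCh38.p14).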

Additional observations from a re-analysis of the deposited data

How the results depend on the processing

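CXCL10 was called higher in 14 of 14 alternatives and CCL5 in 10 of 14, its 4 losses all being single libraries left out. The number of members called higher was 1 to 3 when 1 library was left out (1 without siALDOA replicate 1 or siControl replicate 2, and 3, CCL20 included, without siControl replicate 1), and 1 with both siALDOA replicate 1 and siControl replicate 3 left out, a choice made after seeing the data. CCL20 entered 4 of these fits through its siALDOA libraries, where it is high, and without it the number was 1 to 2, with CXCL10 alone in 4 of the 6 fits. The members called lower stayed at 0. Genes called higher numbered 359 to 644 and genes called lower 471 to 790 with 1 library left out, against 668 and 810, with 359 and 490 without siControl replicate 2 and 363 and 471 without siControl replicate 3. With both libraries out 534 genes were called lower. Scaling by library totals gave 896 higher and 279 lower, and moved the median of all genes to 0.08 and of the members to 0.40. With 1 library left out, the log2 fold change ran from -0.048 (without siControl replicate 2) to 0.885 for CXCL2, from -0.085 (without siALDOA replicate 3) to 0.573 for CXCL8, and from -0.769 to 0.0057 (without siALDOA replicate 1) for CX3CL1. The sign also changed for CXCL3 on summing CXCL1, CXCL2 and CXCL3 (0.265), with none of these called. The cause was not tested.

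The labels do not say whether same-numbered libraries were paired. Deviations of same-numbered libraries correlated at 0.123, 0.077 and 0.079 over 13724 genes. Each library correlated best with its own number, a hint from the data only. With the replicate block 2 members were called higher and 0 lower, and 987 genes higher and 1175 lower. CXCL10 was at 1.83 and CCL5 at 0.92 (edgeR adjusted p = 0.0319).

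Depth limited the scarce members. DESeq2 gave no adjusted p for CXCL1, CXCL2, CXCL3 and CX3CL1, and CXCL2 fell below the filter of 10 counts in every library.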
